A study of Mus musculus with 51 samples.

Results

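Solute carriers are the large group of membrane proteins that move sugars, amino acids, nucleosides, metals and other small molecules across cell and organelle membranes. All probes whose single platform gene symbol began with Slc and a digit were taken: 108 probes of 91 genes in 33 families, of 7920 non-control probes in all. Each probe had been printed as a pair of spots, so the set covered 216 spots, and a probe is named here by its gene and the number of its first spot. All 108 Entrez identifiers were found among the RefSeq genes of assembly GRCm38.p6, and 0 symbols changed. Slc9a3r1 and Slc4a1ap carry the name but are binding partners of transporters, not transporters.

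The study used spike-ins to compare ways of finding changed genes on microarrays, and holds 51 spotted 2-colour arrays. Every channel held RNA of CRL1606, a single mouse hybridoma line (BALB/c spleen cells fused with myeloma P3-X63-Ag8) that makes an antibody against human fibronectin and was grown in suspension in a serum-free medium. On the spiked arrays, channel 1 carried 100 added genes and channel 2 another 100, each at 1 amount. The unspiked arrays (0 pmol) and those at 0.05, 0.1, 0.25, 0.5 and 0.75 pmol numbered 6 each, and those at 0.025, 0.15, 0.2, 1 and 2 pmol numbered 3 each. Neither the identity of the added genes nor the numerator channel of the ratio is given, so a ratio is called positive or negative and no more; replicates are not stated to come from separate cultures, and p-values may then reflect technical spread alone.

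Solute carriers fall into families by sequence, and a family often shares its substrate: hexoses in the family of Slc2a5, cationic amino acids in that of Slc7a1, nucleosides in that of Slc28a3, and metabolites of the mitochondrial matrix in the Slc25 family. Uptake carriers of the plasma membrane work by facilitated diffusion, or by coupling to sodium, chloride or proton gradients. In antibody-secreting cells they supply amino acids and sugar for protein synthesis and glycosylation. None of this can be read from the ratios: both channels held the same RNA, so a ratio carries no expression level, and the labelled cell type could not be checked against its markers.

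The value given throughout is the log2 ratio of a spot after each array was centred on its median, averaged over the pair of spots. Arrays measured between 8370 and 16862 of 16896 spots, the fewest at 1 pmol, where 13.5% to 50.5% of spots were missing; all other arrays missed at most 9.29%. The paired spots correlated with a median r of 0.887 over arrays and a lowest r of 0.198, on 0.75 pmol replicate 4. Of 2446 combinations of array and print block that could be checked, 5 correlated better with the other spiked arrays when the block was read 1, 2 or 22 spots away, and 10 Slc probes lie in these blocks. On 2 pmol replicate 2, block 33 had r = 0.0475 in place and r = 0.738 when read 1 spot further on. The calls of Slc25a44 and of a Slc39a6 probe pair, which rest on these blocks, are given with and without them. Slc39a10, a zinc importer, passed at 1 pmol (-1.18, adjusted p = 0.0167) on 2 arrays, of which 1 lies in a shifted block, and could not be tested without it.

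**Figure D1:**
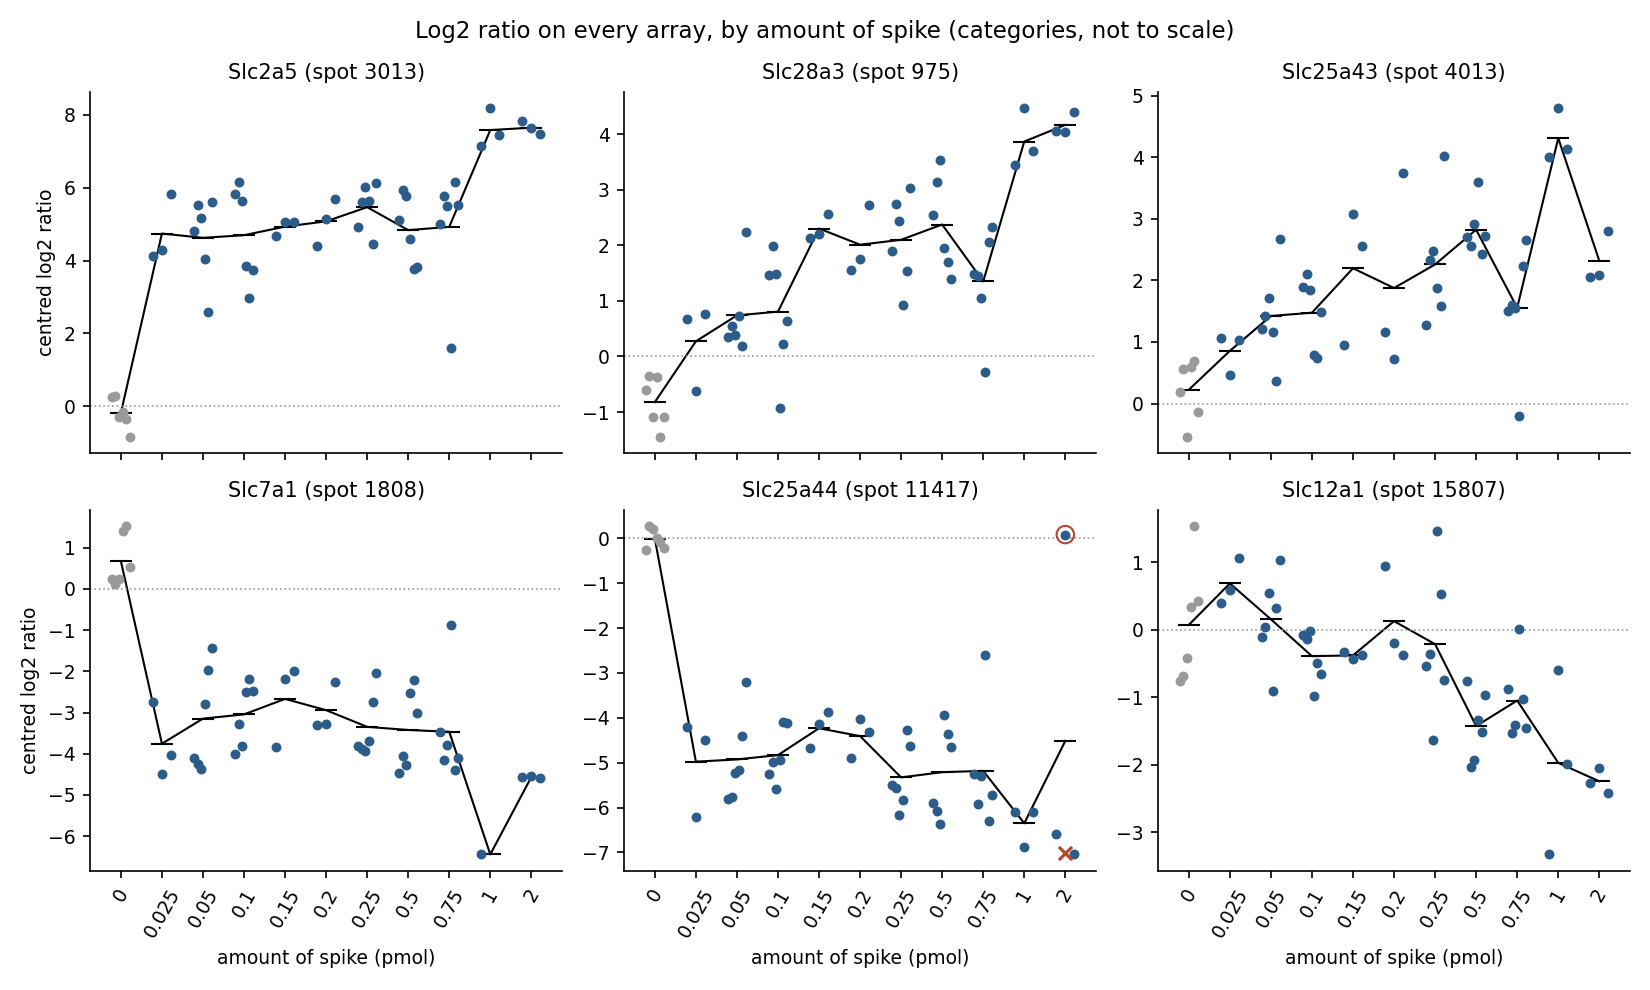
Centred log2 ratio (y axis) of the 6 Slc probes at least 4-fold off at 2 pmol, on every array, by amount of spike in pmol (x axis, evenly spaced categories); grey points are the unspiked arrays, blue points the spiked ones, and black bars joined by a line are the group means. Slc2a5 lies between 1.61 and 8.18 on all 45 spiked arrays; for Slc25a44 the red circle marks 2 pmol replicate 2 as deposited (0.083) and the red cross the value 1 spot further on (-7.01).

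Slc2a5, the facilitative fructose transporter, had the largest positive difference of all Slc probes at every amount. On the unspiked arrays its ratio ran from -0.83 to 0.28, with a median of -0.23. At 0.025 pmol, the smallest amount, the 3 arrays already read 4.12, 4.28 and 5.83. No spiked array overlapped the unspiked ones.
At 0.05 pmol its ratio ran from 2.58 to 5.60 (median 4.99), at 0.1 pmol from 2.96 to 6.16 (median 4.74) and at 0.25 pmol from 4.45 to 6.12 (median 5.63). The arrays at 0.15 pmol read 4.67, 5.06 and 5.06, and those at 0.2 pmol 4.40, 5.15 and 5.68. At 0.5 pmol the range was 3.76 to 5.94 (median 4.86) and at 0.75 pmol 1.61 to 6.15 (median 5.51). From 0.025 to 0.75 pmol the group means thus stayed between 4.62 and 5.465. The arrays at 1 pmol read 7.13, 8.18 and 7.44, and those at 2 pmol 7.83, 7.65 and 7.46. These 6 arrays overlap one another and lie above every array of 0.75 pmol or less. The difference from 0 pmol was 4.92 (standard error 0.67) at 0.025 pmol and 7.83 (0.67) at 2 pmol, with limma adjusted p of 2.5e-06 and 2.6e-12.
Its slope over the spiked arrays, the change of the log2 ratio per doubling of the amount, was 0.36 (standard error 0.098, adjusted p = 0.00694); with the sets of alike arrays described below as a covariate it was 0.43, with an adjusted p of 0.0946.

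Slc28a3, a sodium-coupled nucleoside transporter, started below 0 and crossed it. Without spike its ratio ran from -1.44 to -0.35, negative on all 6 arrays. The arrays at 0.025 pmol read 0.67, -0.62 and 0.77, those at 0.5 pmol ran from 1.39 to 3.53 (median 2.25), and those at 2 pmol read 4.06, 4.04 and 4.40. The 2 pmol arrays lay above all unspiked arrays, by 4.99 on the mean (standard error 0.52, limma adjusted p = 1.9e-10). The difference was 1.09 at 0.025 pmol, which did not pass the threshold (adjusted p = 0.27), 1.56 at 0.05 pmol (adjusted p = 0.0197; without 0.05 pmol replicate 6, which read 2.23, the difference was 1.26 with an adjusted p of 0.0944) and 3.12 at 0.15 pmol. With the array sets as a covariate, which at 1 pmol rests on 0.75 pmol replicate 4, the differences at 0.05 and 0.15 pmol were 0.24 (adjusted p = 0.907) and 1.96 (0.116). Slc28a3 then passed at 0.75, 1 and 2 pmol only. Its slope of 0.51 per doubling (standard error 0.080) was the steepest positive one of the 108 probes; whether it differs from that of Slc2a5 was not tested.

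Slc25a43, a mitochondrial carrier, was positive on 44 of 45 spiked arrays at spot 4013. The unspiked arrays ran from -0.54 to 0.69, and the 2 pmol arrays read 2.05, 2.09 and 2.81, with no overlap. The difference at 2 pmol was 2.09 (standard error 0.53, limma adjusted p = 0.00349). At 1 pmol the ratios were 4.01, 4.79 and 4.13, above those at 2 pmol, and at 0.5 pmol they ran from 2.43 to 3.60. The probe passed the threshold at 7 of 10 amounts. With the array sets as a covariate it passed at 1 pmol alone (5.87, adjusted p = 3.0e-06), and the adjusted p at the other 6 of these amounts ran from 0.0641 to 0.926. At 1 pmol the covariate rests on 0.75 pmol replicate 4, the only array of another amount in that set. Within the set of the unspiked arrays, described below, this probe passed at 0.75 pmol (1.32, adjusted p = 0.0113) and not at 0.1 pmol (0.78, 0.165). Without centring this probe did not pass at 0.2 pmol (adjusted p = 0.727) or 0.75 pmol (0.742).

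Slc7a1, which takes up arginine and lysine, was the most negative probe at 2 pmol with all arrays as deposited. Its unspiked ratios ran from 0.11 to 1.52. At 0.025 pmol the arrays read -2.74, -4.50 and -4.03, and at 2 pmol -4.57, -4.53 and -4.59, a spread of 0.034 (SD, n = 3). All 43 spiked arrays that measured it were negative. The difference was -4.43 (standard error 0.63) at 0.025 pmol and -5.24 (0.63) at 2 pmol, with limma adjusted p of 5.8e-06 and 9.2e-09. At 1 pmol only replicate 1 measured it, at -6.44, so that amount was not tested. Between the smallest and the largest amount the slope was -0.17 per doubling and did not pass the threshold (adjusted p = 0.144); with the array sets as a covariate it was -0.40 and passed (adjusted p = 0.0396).

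Slc25a44, the mitochondrial carrier of branched-chain amino acids, was negative on 44 of 45 spiked arrays. Without spike it lay between -0.25 and 0.27. The arrays at 0.025 pmol read -4.21, -6.22 and -4.50, and those at 2 pmol -6.59, 0.083 and -7.05. The array near 0 is 2 pmol replicate 2, on which this probe lies in shifted block 33: both its spots were near 0 (0.030 and 0.137), while the spots next to them read -6.84 and -7.18. That neighbouring position, a control, read between -1.779 and -1.500 on the other arrays at 2 pmol. The difference at 2 pmol was -4.51 (standard error 0.81, limma adjusted p = 3.0e-05) with the array as deposited, and -6.81 (0.65, adjusted p = 3.6e-11) without the shifted blocks. The slope changed with it, from -0.085 per doubling (adjusted p = 0.577) to -0.22 (adjusted p = 0.0378). Of 139 features at least 16-fold from 0 with 1 sign on replicates 1 and 3 and measured on replicate 2, 4 were within 1 log2 unit of 0 there, this probe among them.

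Slc12a1, the sodium-potassium-chloride cotransporter of the kidney tubule, passed the threshold at 0.5, 1 and 2 pmol and at no other amount, a set that changed with the processing. Spot 15807 ran from -0.76 to 1.53 without spike, the widest range of these 6 probes there. The highest value averages 2 unlike spots, 0.605 and 2.459, on 0 pmol replicate 5. The value 2.459 recurs at other Slc probes on that array. Replicates 1 to 3 were all negative and replicates 4 to 6 all positive. At 0.025 pmol this probe read 0.39, 0.59 and 1.07. At 2 pmol it read -2.27, -2.04 and -2.42, below all unspiked arrays. The difference at 2 pmol was -2.31 (standard error 0.49, limma adjusted p = 3.7e-04), and its slope of -0.43 per doubling (0.059) was the most negative of the 108. With no centring Slc12a1 passed at no amount: the difference was -0.95 at 2 pmol (adjusted p = 0.211), -1.85 at 1 pmol (0.0669), and at 0.5 pmol its sign turned, to 0.53 (0.345). With the array sets as a covariate, which at 1 pmol rests on 0.75 pmol replicate 4, it passed at 0.75 pmol (-1.42, adjusted p = 0.0292) and 1 pmol (-3.40, 0.00266) and not at 0.5 pmol (-1.55, 0.183). With all arrays brought to one spread it did not pass at 1 pmol (-1.02, adjusted p = 0.123).

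Counted over amounts, with limma over all features and adjusted p under 0.05, 46 of 108 Slc probes passed at 1 amount or more. The other 62 passed at 0 amounts (57.4%, beside 46.6% of all features), at exactly 1 amount 23 (21.3%, beside 30.1%), and at 2 or more 23 (21.3%, beside 23.3%). At 1 pmol alone 17 of the 108 probes passed, beside 18.2% of all features. Slc2a5, Slc7a1 and Slc25a44 passed at every amount at which they were tested, as did 1.82% of all features. With the array sets as a covariate this held for Slc2a5 alone of these 3: Slc7a1 had -2.43 at 0.025 pmol (adjusted p = 0.0525), and Slc25a44 an adjusted p of 0.13 there and 0.178 at 2 pmol. Without the shifted blocks Slc25a44 passed with the covariate too, with -3.57 at 0.025 pmol (adjusted p = 2.3e-04) and -5.42 at 2 pmol (6.7e-07). With all arrays brought to one spread it did not pass at 0.025 pmol (adjusted p = 0.0746). All 10 comparisons share the 6 unspiked arrays, so their counts are not independent.

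At 0.025 pmol 4 Slc probes passed, 1 positive and 3 negative; of all features 4.98% passed, 1.67% positive and 3.31% negative. At 0.05 pmol 5 passed (2 and 3), with 4.15% of all features (2.25% and 1.91%). At 0.1 pmol 5 passed (2 and 3), with 6.26% of all features (4.09% and 2.17%). These first counts were thus small in both directions. At 0.15 pmol 9 passed (5 and 4; all features 10.7%, as 6.79% and 3.89%). At 0.2 pmol 7 passed (3 and 4; all features 8.89%, as 6.03% and 2.87%). At 0.25 pmol 8 passed (4 and 4; all features 13%, as 8.98% and 4.04%). In the array as a whole the positive calls were the more common at these amounts. At 0.5 pmol 18 passed (8 and 10; all features 25.1%, as 14.1% and 11%), and at 0.75 pmol 10 (7 and 3; all features 7.49%, as 4.92% and 2.56%). At 1 pmol 33 of 86 tested passed (11 and 22; all features 42.5%, as 15.9% and 26.6%), and at 2 pmol 17 of 108 (10 and 7; all features 15.6%, as 10.3% and 5.33%). As a share of the 108 probes, 3.7% passed at 0.025 pmol and 15.7% at 2 pmol, so at most amounts the Slc probes lay near or below the share of all features. At 2 pmol 6 of them, or 5.56%, also differed at least 4-fold, beside 4.95% of all features, and 28 of 108 had no overlap with the unspiked arrays, beside 29% of all features.

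**Figure D2:**
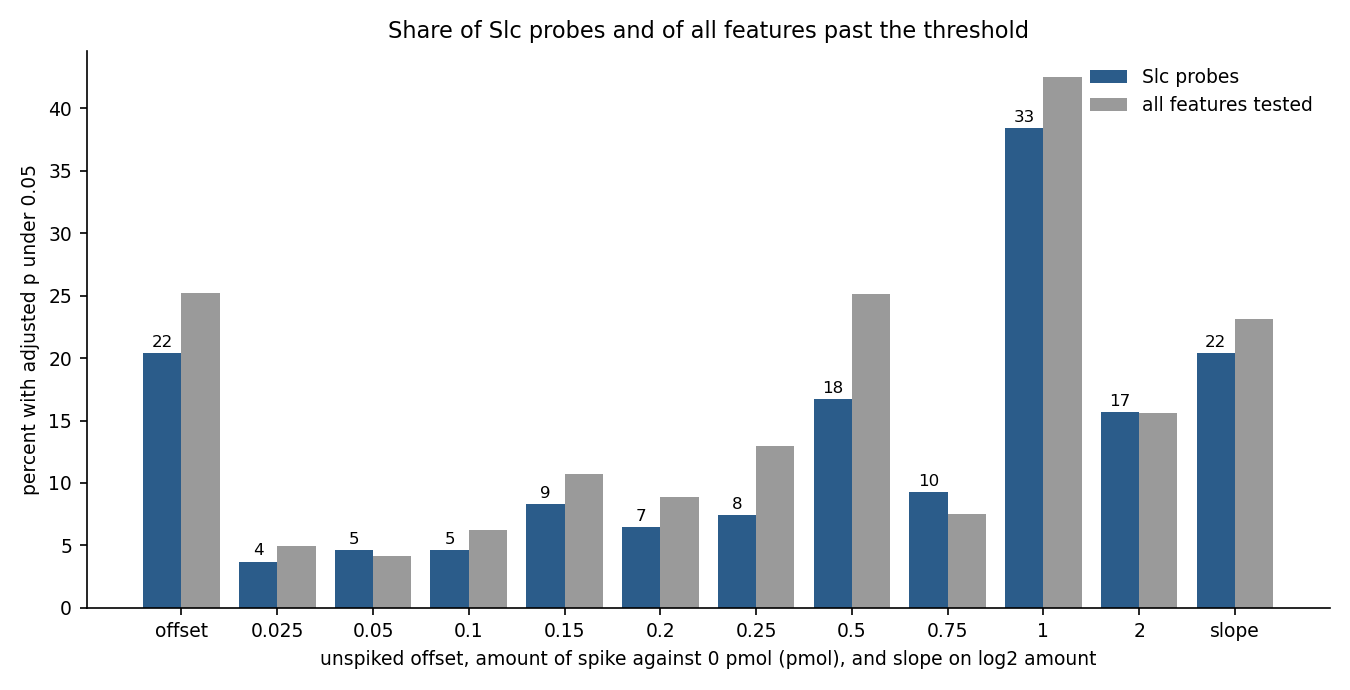
Percent of probes past the threshold (y axis, from 0) for the unspiked offset, each amount against 0 pmol and the slope (x axis): blue bars are the Slc probes, with the number that passed above them, and grey bars all features tested. The grey bars run from 4.15% at 0.05 pmol to 42.5% at 1 pmol, and the blue bar is the lower of the pair at 1 pmol (38.4%) and at 0.5 pmol (16.7%).

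The direction of these counts moved with the centring at some amounts. The array medians that centring removes were higher than at 0 pmol by 2.03 at 0.5 pmol and 1.37 at 2 pmol on the log2 scale. Without centring, the 18 probes at 0.5 pmol became 102 (100 positive and 2 negative), the 17 at 2 pmol became 35 (33 and 2), the 10 at 0.75 pmol became 4 (2 and 2), the 33 at 1 pmol became 4 (3 and 1), and the 22 of the slope became 4 (3 and 1). Centring moves every feature of an array by the same amount, so these changes are not particular to Slc probes. Here and below, counts under another setting are given without the share of all features under it. When all arrays were brought to one spread, the splits were 1 and 1 at 0.025 pmol, 1 and 3 at 0.05 pmol, 4 and 3 at 0.2 pmol, and 7 and 5 at 0.75 pmol.
Some calls at 0.5 pmol were returns towards 0: 8 of the 18 probes had a mean nearer to 0 there than at 0 pmol. That is 7.41% of the 108 Slc probes, beside 13.7% of all features that were called and nearer to 0. At 2 pmol 2 of the 17 had a mean nearer to 0, or 1.85% of the 108, beside 4.93% of all features. Slc35a2, the UDP-galactose transporter of the Golgi, is one of the 8 at 0.5 pmol: at spot 9127 its mean was -0.74 without spike and 0.094 at 0.5 pmol. Slc39a1, a zinc importer, is another, with 0.94 and 0.065.

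The arrays were also grouped by clustering into 6 sets of alike arrays, a number that was chosen and not found from the data. The clustering used 3254 features measured on all 51 arrays, Slc probes left out. Their mean at 2 pmol was less than 4-fold off 0. The 6 unspiked arrays shared a set with 3 arrays at 0.1 pmol and 3 at 0.75 pmol, while the 2 pmol arrays lay in a set that held no unspiked array. The arrays at 1 pmol shared their set only with 0.75 pmol replicate 4, which had the lowest correlation of paired spots (0.198). Covariate results at 1 pmol thus rest on that array. There the difference moved from 7.76 to 11.3 for Slc2a5 and from -6.34 to -9.24 for Slc25a44. With the set as a covariate the count at 2 pmol fell from 17 to 5, and the differences were 5.39 for Slc2a5 (adjusted p = 6.0e-06), 2.66 for Slc28a3 (0.0138), 0.94 for Slc25a43 (0.657), -4.33 for Slc7a1 (8.7e-05), -3.12 for Slc25a44 as deposited (0.178) and -1.575 for Slc12a1 (0.314). Within the set of the unspiked arrays, Slc2a5 differed by 3.69 at 0.1 pmol and 5.61 at 0.75 pmol, Slc7a1 by -3.07 and -4.48, and Slc25a44 by -4.38 and -5.48, all past the threshold. Slc28a3 differed there by 0.80 at 0.1 pmol (adjusted p = 0.233) and by 2.15 at 0.75 pmol (adjusted p = 8.2e-04). Slc25a43 at spot 4013 differed by 0.78 (0.165) and 1.32 (0.0113) at these amounts. For Slc12a1 at spot 15807 the differences were -0.78 (0.354) and -1.34 (0.0978).

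Beyond these 6 probes, 11 Slc probes passed the limma threshold at 2 pmol, with differences between -1.49 and 1.35. Slc25a46, an outer-membrane protein of mitochondria, read 1.36 to 1.59 at 2 pmol and -0.56 to 0.59 without spike, a difference of 1.35 (standard error 0.40, adjusted p = 0.0154; without 2 pmol replicate 1 or replicate 3 the call was lost, with a largest adjusted p of 0.0761). Slc26a10, of the anion exchanger family, differed by 1.23 and was positive on all unspiked arrays already. Slc35f3, of the nucleotide-sugar carrier family, differed by 1.17 and also lost its call without 2 pmol replicate 1 or 3 (largest adjusted p 0.0828). On the negative side stood Slc25a12, the aspartate-glutamate carrier of mitochondria, with -1.49 at spot 15188, then Slc9a8, a sodium-proton exchanger of the Golgi, with -1.13, and Slc39a6, a zinc importer, with -1.09 at spot 10877. Slc9a8 lost its call without 0 pmol replicate 4, 2 pmol replicate 2 or 2 pmol replicate 3 (largest adjusted p 0.102), and Slc39a6 without 2 pmol replicate 3 (0.255). Slc9a8 and Slc39a6 turned to 0.24 and 0.28 without centring, and neither then passed.

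**Figure D3:**
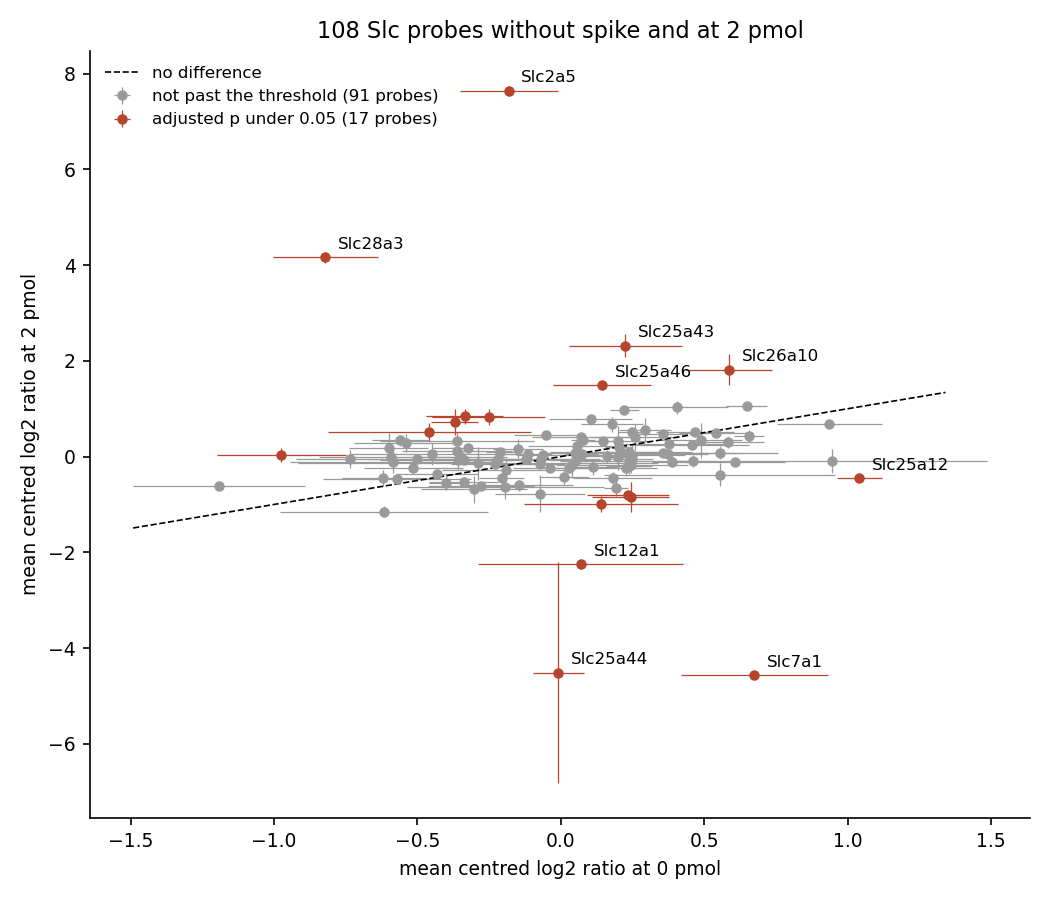
Mean centred log2 ratio of each of the 108 Slc probes on the 6 unspiked arrays (x axis) and on the 3 arrays at 2 pmol (y axis, another scale), with standard errors of the means as bars; red points passed the threshold and the dashed line marks no difference. Slc2a5 stands highest at 7.65 and Slc7a1 lowest at -4.56; the long bar of Slc25a44 comes from 2 pmol replicate 2.

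At 1 pmol, where the most probes passed, Slc1a3, the glial glutamate transporter, was the most negative of those tested after Slc25a44, by -2.33 (standard error 0.32, adjusted p = 6.9e-08). That value rests on 2 arrays, -1.34 and -3.22, which lie far apart, and neither could be left out. The 3 arrays at 1 pmol missed the most spots of all arrays, and the spread of the Slc probes on them (0.639 to 1.46, scaled median absolute deviation) lay above that at 2 pmol (0.428 to 0.586). The part of either in the count at 1 pmol was not tested. Brought to one spread, they gave a count of 10 at 1 pmol, not 33.

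On the unspiked arrays, where both channels held the same RNA, 22 Slc probes had a mean off 0 (14 positive and 8 negative), while 25.2% of all features did (10% positive and 15.2% negative). The sign was the same on every measured array for 16 of these 22, or 14.8% of the 108 Slc probes, beside 18.4% of all features. At least 2-fold off were 2 of them, or 1.85% of the 108, beside 4.46% of all features. The median offset of the Slc probes was 0.054, and that of the other features -0.060.
Slc25a12 at spot 15188 had the largest positive offset, 1.04 (standard error 0.15, limma adjusted p = 7.2e-06), with 0.77 as its lowest array and 1.27 as its highest. At spots 797, 2221 and 16244 the same gene had offsets of 0.15, 0.46 and 0.10, of which only 0.46 passed. Slc39a1 ran from 0.60 to 1.77, with a mean of 0.94. Slc19a1, the reduced folate carrier, was the narrowest of these, from 0.50 to 0.81 around 0.66.
Slc4a1ap had a mean of 0.95, but it rested on a single array: replicate 2 read 3.52 and the other 5 between -0.09 and 1.08. Without replicate 2 its mean was 0.43 and did not pass (adjusted p = 0.178).
On the negative side, Slc25a24, the calcium-regulated ATP-magnesium carrier of mitochondria, averaged -1.19, the largest offset of either sign, with 1 array above 0, and Slc6a7, the brain proline transporter, -0.97 with all 6 arrays below 0. Slc28a3 averaged -0.82 and Slc35a2 at spot 9127 -0.74. The call of Slc28a3 was lost without replicate 3, 5 or 6, and Slc35a2 at spot 14617 averaged 0.23 and did not pass. Slc2a5 itself averaged -0.18 and did not pass (limma adjusted p = 0.77). The standard error of an offset rests on the spread within amounts over all arrays, most of them spiked. For Slc2a5 this pooled SD was 1.004, beside 0.418 on the unspiked arrays. For Slc28a3 these were 0.761 and 0.450. For Slc7a1, which averaged 0.67 and did not pass (limma adjusted p = 0.171), they were 0.940 and 0.628. The reverse held for Slc4a1ap, with 0.695 and 1.32. An offset that did not pass is thus not shown to be 0.
An offset is relative to the array median. Without centring all 108 probes were negative, and the 4 largest positive offsets turned to -0.91 (Slc25a12), -1.004 (Slc4a1ap), -1.01 (Slc39a1) and -1.29 (Slc19a1). With the array set as a covariate, 2 of the 108 offsets passed, but these offsets are another quantity. All 6 unspiked arrays lie in 1 set, so the fit then gives a level averaged over all 6 sets. For Slc2a5 it moved from -0.18 to 0.38. This fit therefore cannot show whether the means of the unspiked arrays are off 0.

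**Figure D4:**
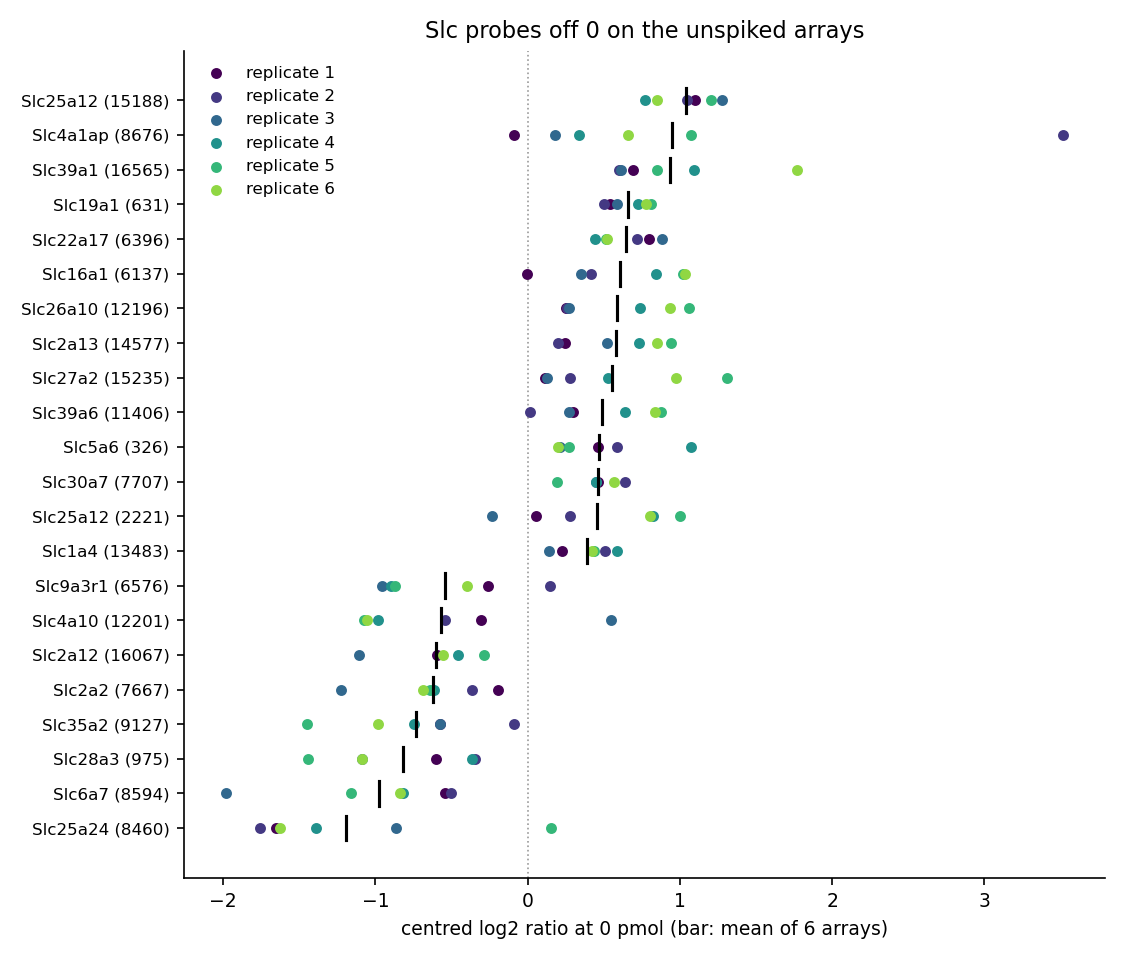
Centred log2 ratio on the 6 unspiked arrays (x axis) for the 22 Slc probes whose mean was off 0, with gene and first spot on the y axis; points are arrays, coloured by replicate, and black bars are means. Slc4a1ap has 1 array at 3.52, far from its others, while the arrays of Slc19a1 span 0.50 to 0.81.

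The unspiked spread of the Slc probes was close to that of the array. Among the 101 Slc probes measured on all 6 unspiked arrays, the standard deviation had a median of 0.346 and ran from 0.101 to 1.32. The median over 7237 other features was 0.359. The tightest were Slc25a12 at spot 797 (0.101), the acetyl-CoA transporter Slc33a1 (0.103) and Slc35c2 of the nucleotide-sugar carriers (0.104). The widest were Slc4a1ap (1.32), the oxoglutarate-malate carrier Slc25a11 (0.986) and Slc10a6, which takes up sulphated steroids (0.876). Slc25a11 read 2.459 on replicate 5, as did a spot of Slc12a1 and of Slc7a1, and -0.37 to 0.57 on its other arrays. The same centred value on the same array means that the same ratio was deposited for these probes. Whether that repeated ratio is a measurement was not tested. The scaled median absolute deviation of the Slc probes was 0.319 to 0.402 on replicates 1 to 3 and 0.521 to 0.683 on replicates 4 to 6. For the other features it was 0.364 to 0.480 and 0.688 to 0.751.

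Over the 45 spiked arrays, 22 Slc probes had a slope on the amount (11 positive and 11 negative), while 23.1% of all features did (13% and 10.1%). After Slc28a3 and Slc2a5, the steepest positive slopes were those of Slc25a43 (0.30) and Slc6a7 (0.25). After Slc12a1, the steepest negative ones were those of Slc25a12 at spot 15188 (-0.25), Slc39a6 at spot 10877 (-0.22) and the lactate transporter Slc16a1 at spot 7004 (-0.21). Other probes of these genes had no slope past the threshold: -0.048, -0.026 and 0.018 for Slc25a12, and -0.070 for Slc39a6. It was -0.033 for Slc16a1, 0.033 for Slc25a43 and -0.035 for Slc12a1. The slopes of Slc6a7 and of Slc25a12 at spot 15188 were opposite in sign to their unspiked offsets. With the array set as a covariate, 5 of the 108 slopes passed.

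Several genes were printed more than once, and their probes did not move as one. The 14 genes with several probes held 31 of the 108, each gene's probes listed with the same sequence record. At 2 pmol 4 of these genes had a probe past the threshold, and 0 had all probes past it. For the unspiked offset 6 had a probe past it, and 0 had all. The probes of a gene differed by 0.029 (Slc16a1) to 2.17 (Slc25a12) in their change at 2 pmol, with a median of 0.54.
At spot 15807 Slc12a1 changed by -2.31, and at spot 10835 by -0.22 (standard error 0.36). Slc25a43 changed by 2.09 at spot 4013 and by 0.62 at spot 11186. Of the 4 probes of Slc25a12, spot 15188 changed by -1.49, while spots 797, 2221 and 16244 changed by 0.17, -0.21 and 0.67.
The difference between the probes of a pair was compared between spiked and unspiked arrays with exact two-sided permutation tests, at 0.5 and 2 pmol, a comparison chosen after the data had been seen. Of 42 such tests over 21 pairs of probes, 12 passed after Benjamini-Hochberg adjustment over the 42. They include both amounts for Slc12a1 and for Slc25a43 (exact p = 0.00216, adjusted 0.0227, at 0.5 pmol and 0.0119, adjusted 0.0417, at 2 pmol for each gene); with 3 arrays against 6 the smallest p the design allows is 0.0119. Slc20a2, a phosphate cotransporter, and Slc39a6 passed at 2 pmol, the latter with 1 array in a shifted block, and Slc24a3, a sodium-calcium-potassium exchanger, and Slc35a2 at 0.5 pmol. The rest of the 12 were overlapping pairs of Slc25a12 probes. Spots 15188 and 16244 passed at both amounts, 797 and 15188 at 0.5 pmol, and 2221 and 16244 at 2 pmol. The array set of the unspiked arrays held no array at 0.5 or 2 pmol, so these tests cannot tell the spike from the array set. Without the shifted blocks 11 of the 12 still passed, and Slc39a6, left with 2 arrays against 6, did not (difference -1.22, exact p = 0.0357, the smallest that design allows, adjusted 0.0882).
The other probes by gene, as changes at 2 pmol, were 0.07, 0.27 and -0.38 for the neutral amino acid transporter Slc38a1, 0.18 and -0.20 for the glucose transporter Slc2a2, 0.17 and -0.07 for the vesicular amine transporter Slc18a2, -0.55 and -0.24 for the zinc carrier Slc30a7, -0.44 and -0.01 for the amino acid exchanger subunit Slc7a6, and -0.11 and -0.32 for Slc38a10. None of these probes passed the threshold.

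**Figure D5:**
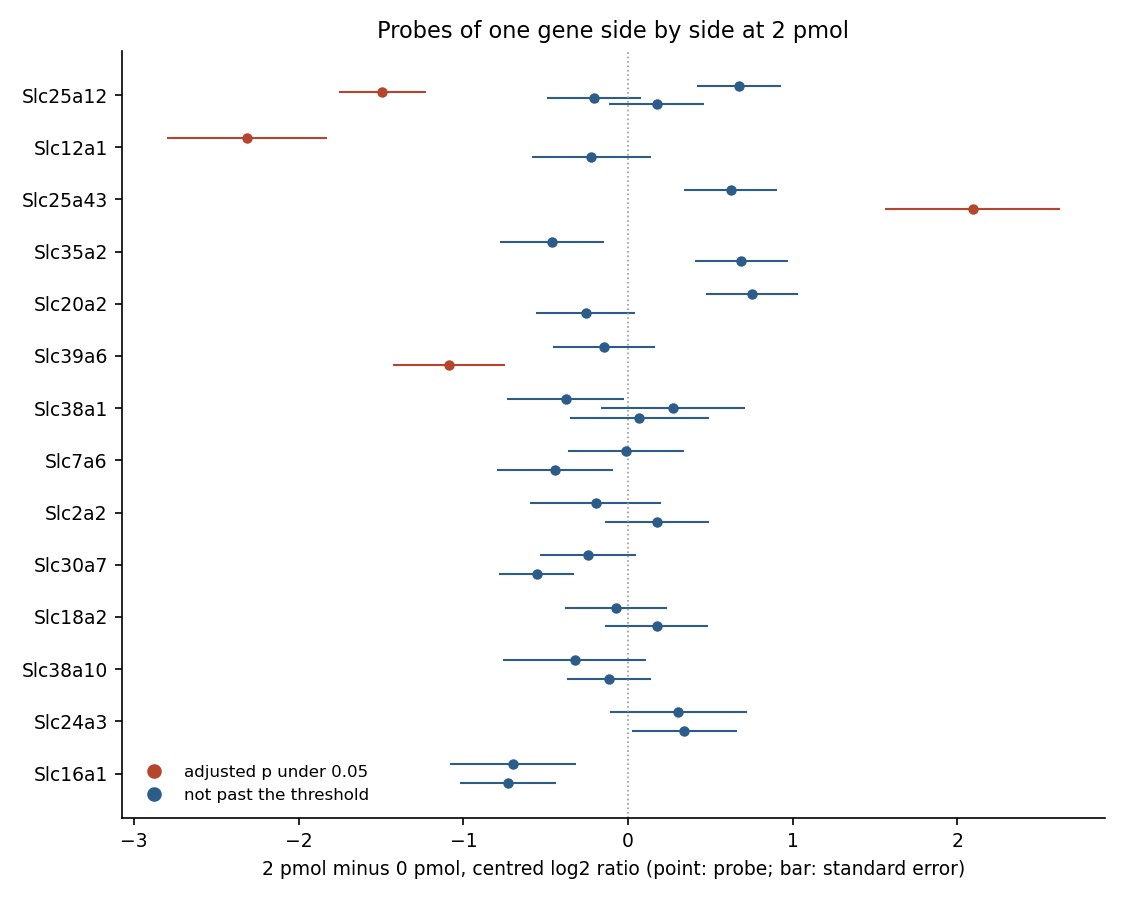
Difference between 2 pmol and 0 pmol in the centred log2 ratio (x axis) for each probe of the 14 genes with several probes (y axis, ordered by the range within the gene); points are probes, bars standard errors, red where the adjusted p was under 0.05. Slc12a1, Slc25a43, Slc25a12 and Slc39a6 each have 1 red probe among others that did not pass.

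By what the families carry, no class had all or most of its probes past the threshold, and 15.6% of all features passed at 2 pmol (10.3% positive and 5.33% negative). At 2 pmol 1 of 9 probes passed in the class of sugar carrier families (Slc2a5, positive), which is set by family and so holds the vitamin transporter Slc5a6, 3 of 15 for amino acids and peptides (Slc7a1 negative, Slc7a7 and the glutamate transporter Slc1a1 positive), 4 of 17 mitochondrial carriers (2 and 2), and 2 of 11 for nucleosides and nucleotide sugars (both positive). For inorganic ions 4 of 14 passed (2 and 2), for neurotransmitters 2 of 9 (Slc6a7 positive, the taurine transporter Slc6a6 negative), for metals 1 of 12, and for organic ions, vitamins and lipids 0 of 21. The class medians at 2 pmol lay between -0.18 (metals) and 0.21 (inorganic ions); that of all Slc probes was 0.024 and that of the other features 0.043.
In the last class limma called 0 of 21 at 2 pmol, and 1 of 21 had an unadjusted p under 0.05, beside 27.7% of all features. At 1 pmol 2 of its 19 tested probes passed as positive and 6 as negative, beside 15.9% and 26.6% of all features. At 0.5 and 0.75 pmol 1 of 21 passed each time, as positive, beside 14.1% and 4.92% of all features. Without spike 4 of 21 had a positive offset (10% of all features did), Slc19a1 and Slc16a1 at spot 6137 among them. Slc16a1 at spot 7004 had an offset of -0.073, which did not pass. This was not particular to the class: 3 of 12 probes for metals and 2 of 9 for sugars also had a positive offset. The median offset of the class was -0.115.

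Some places next to the strong Slc probes were also off 0. The 6 probes at least 4-fold off at 2 pmol had 22 neighbouring probes with a value, of which 9 passed at 2 pmol, 8 of these with the sign of the Slc probe, and 5 were at least 4-fold off. Of all features, 15.6% passed there. The unnamed probe above Slc28a3 differed by 6.08 and Bcl2l14 below it by 3.90. Gm11627, to the left of Slc25a43, differed by 2.02, and Slc25a46 is its neighbour to the right. Ascc3, below Slc7a1, differed by -3.22, and Dock5, below Slc2a5, by -4.29 against its neighbour's 7.83. Whether neighbours share signal was not tested.

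Other gene lists were read for comparison, beside the same 15.6% of all features. Of 12 hexose handling probes 3 passed at 2 pmol: Hk2, which phosphorylates glucose, at 3.79 on spot 9437 and -3.11 on spot 15849, and the phosphofructokinase Pfkm at -1.30. Of 14 probes for ion gradients and transporter partners 1 passed, the proton-potassium pump Atp12a (-1.25), which lies above Slc12a1 on the array. Of 17 probes for other membrane transporters 3 passed, all positive: Slco2b1, an organic anion carrier (3.79), Abca9 (1.38) and the water channel Aqp9 (1.03). Of 6 probes of B lineage and plasma cell markers 3 passed, all negative, with Cd22 at -6.13. The medians of the 4 lists lay between -0.54 and 0.19.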

How the data were processed

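Values came from 1 table of 51 arrays. The authors deposited log2 ratios per spot; the base was read from the values, since the labels do not give it, and background, filtering and normalisation are not given in the sources used here. The upper limit of 16.61 (1074 values, 14 of Slc spots) was set to missing. Each array was centred on its median over non-control spots, and spots 22 positions apart were averaged (5458 such pairs list the same sequence record, 0 list different ones). The 11 control positions of each block were left out, giving 7920 features. limma 3.58.1 in R 4.3.3 fitted all 51 arrays with 1 mean per amount (two-sided, Benjamini-Hochberg over all features, threshold 0.05, at least 2 arrays per group), and, without the 0 pmol arrays, the slope on log2 of the amount where at least 10 arrays had a value. The test was checked on simulated data with independent noise for each feature. That simulation held no array sets, no unequal spread of arrays and no shifted blocks, so it cannot show how these affect the calls. The number of arrays limits the precision.

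Print blocks were checked by correlating each block of each array with the median of the other spiked arrays, in place and up to 3 rows and 3 spots away; a block counted as shifted where r was above 0.5 and over 0.3 higher than in place. Groups and replicate numbers came from the sample titles. Named probes were Slc2a5, the 6 highest and 6 lowest past the threshold at 2 pmol (2 and 2 at other amounts, 4 and 4 for offset and slope), the 3 largest and 3 smallest standard deviations, all genes with several probes, up to 4 called genes per list, and array neighbours of probes at least 4-fold off. Members and lists were chosen with earlier results of these data known. Same-numbered arrays did not deviate together in general (49 of 210 pairs had r above 0.1; lowest -0.495, median 0.0047, highest 0.654). Alternatives are given in the closing section. Figures were drawn with matplotlib.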

Additional observations from a re-analysis of the deposited data

Results flagged for a closer look

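Of 43 groups of 4 to 6 arrays checked, 5 held an array far from the others of its amount (a gap to the nearest array above the 95% critical value of Dixon's test, which chance passes in about 1 in 20 groups). On 0.75 pmol replicate 4, Slc2a5 read 1.61, where the other 5 arrays ran from 4.9995 to 6.15. On the same array Slc7a1 read -0.877, against -4.40 to -3.48 elsewhere. Slc25a44 read -2.59 on it, against -6.30 to -5.26. This array also had the lowest correlation of paired spots, 0.198; its part in these values was not tested. Slc28a3 read 2.23 on 0.05 pmol replicate 6, where the other arrays ran from 0.19 to 0.73. Slc4a1ap, the adaptor protein, read 3.52 on 0 pmol replicate 2, where the others ran from -0.09 to 1.08.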

How the results depend on the processing

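The number of Slc probes past the threshold depended on several settings. Shares of all features under these settings are not given. The counts in this section therefore describe the settings and are no result about the Slc probes. Without centring 108 offsets passed, 3 differences at 0.05 pmol, 5 each at 0.15 and 0.25 pmol, 4 each at 0.2, 0.75 and 1 pmol, 102 at 0.5 pmol, 35 at 2 pmol, and 4 slopes. The offsets of Slc25a12, Slc4a1ap, Slc39a1 and Slc19a1 then turned to -0.91, -1.004, -1.01 and -1.29, and the differences of Slc9a8 and Slc39a6 at 2 pmol to 0.24 and 0.28. With the array set as a covariate 2 offsets passed, as levels averaged over the sets and not means of the unspiked arrays. Also past the threshold were 1 difference at 0.025 pmol, 3 each at 0.05, 0.15 and 0.2 pmol, and 4 at 0.25 pmol. A further 6 passed at 0.5 pmol, 14 at 1 pmol (resting on 0.75 pmol replicate 4) and 5 at 2 pmol, with 5 slopes. Slc9a8 at 2 pmol turned to 0.067. With array weights 38 offsets passed, 8 differences each at 0.025 and 1 pmol, 9 at 0.05 pmol, 25 at 0.1 pmol, 27 at 0.15 pmol, 32 at 0.2 pmol, 34 at 0.5 pmol, 37 at 2 pmol, and 39 slopes. The cause was not tested. With features measured on all 51 arrays, 52 Slc probes, 14 offsets passed, 2 differences at 0.025 pmol, 20 at 1 pmol and 14 slopes, from fewer probes. Brought to one spread, the arrays gave 2 at 0.025 and 10 at 1 pmol, and with only the 2 groups compared 6 at 0.75 pmol.

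Leaving out 1 array at a time gave 13 to 26 probes for the offset, 3 to 5 at 0.025 pmol, 3 to 7 at 0.05, 4 to 6 at 0.1, 5 to 8 at 0.15, 5 to 8 at 0.2, 7 to 11 at 0.25, 14 to 20 at 0.5, 6 to 11 at 0.75, 22 to 34 at 1, 10 to 17 at 2 pmol and 18 to 23 for the slope. The offset count was 13 without 0 pmol replicate 5 and 14 without 0 pmol replicate 6; counts also fell by over 1.5 times without 0.05 pmol replicate 6 (3), 0.15 pmol replicate 2 or 3 (5 each), 0.75 pmol replicate 6 (6), and 2 pmol replicate 1 (11) or 3 (10). With the replicate number as a block all 12 counts stayed within 1.5 times, with 15 at 2 pmol; 1 named difference lost its call, that of Slc39a6 at 2 pmol (-0.88, adjusted p = 0.0681). Left out after seeing the data, the shifted print blocks changed no count by over 1.5 times, and of 63 named calls 63 remained.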
